A study of Mus musculus with 24 samples.

Results

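The insulin-like growth factor (IGF) pathway sets the rate of fetal growth. Its genes *Igf2* and *Igf2r* are imprinted, and so is the receptor inhibitor *Grb10*; the other components are expressed from both alleles. Described here are 10 such components: the ligand gene *Igf1*, the receptor genes *Igf1r* and *Insr*, the adaptor gene *Irs1*, the binding protein genes *Igfbp2*, *Igfbp3*, *Igfbp4* and *Igfbp5*, and the *Igf2* mRNA binding protein genes *Igf2bp1* and *Igf2bp3*. They were chosen by name, with earlier results of these data known, and all 10 were found among the 34745 genes of the count table.

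RNA-seq counts were available for 6 M-Z+ and 6 M-Z- embryos, each a whole mouse embryo at embryonic day 13.5 on the hybrid 129/DBA background. M-Z+ embryos are *Zfp57*-/+, without maternal *Zfp57* but with a zygotic copy, and M-Z- embryos are *Zfp57*-/- maternal-zygotic mutants. Maternal *Zfp57* was therefore missing in both groups, and the comparison is about zygotic *Zfp57* alone. ZFP57 is a zinc finger protein that maintains DNA methylation at imprinting control regions, and the RNA-seq was done to find its target genes. Each of the 12 libraries comes from a labelled replicate, and sex, litter and batch are not given in the labels. In the methods of the study the homozygous mothers were 129 mice and the heterozygous fathers were mainly of DBA/2J background.

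IGF1 and IGF2 bind the receptor encoded by *Igf1r*, and insulin binds the receptor encoded by *Insr*. Both receptors are tyrosine kinases that phosphorylate adaptors such as IRS1, which pass the signal to PI3K, AKT and mTOR. The binding proteins hold IGFs outside the cell and control how much of the ligand reaches its receptor. The *Igf2* mRNA binding proteins are fetal RNA-binding proteins that bind transcripts including that of *Igf2*.

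Promoter sequences were taken from RefSeq (GRCm38.p6), which held windows for 8 of the 10 genes (9 windows, from 250 bases before to 50 after a transcript start). Not matched were *Insr* and *Igf2bp1*. A window need not sit at the start of the gene as counted. That of *Igf1r* ends at position 67952306, before the counted gene begins (67952859). That of *Igf1* (87860861 to 87861160) lies within the counted gene, which begins at 87858265. The 250 bases before the start are shown for the gene whose level varied most among embryos (*Igf1r*), for the one that varied least (*Igfbp5*), and for *Igfbp4*, which varied as widely as few genes of its count. Capitals mark the GC box GGGCGG and the TATA box TATAAA, each searched on both strands; the hexamer TGCCGC, known as the core of the ZFP57 binding site, was searched in the same way. None of these letters overlap another motif in the windows shown, and *Igfbp5* holds none of the 3.
Igf1r, chr7:67952007-67952256, plus strand: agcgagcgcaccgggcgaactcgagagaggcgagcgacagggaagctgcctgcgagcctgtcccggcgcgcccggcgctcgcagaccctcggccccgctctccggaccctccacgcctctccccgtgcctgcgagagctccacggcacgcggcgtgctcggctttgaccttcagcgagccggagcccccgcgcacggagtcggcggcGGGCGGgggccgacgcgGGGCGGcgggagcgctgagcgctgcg
Igfbp4, chr11:99040994-99041243, plus strand: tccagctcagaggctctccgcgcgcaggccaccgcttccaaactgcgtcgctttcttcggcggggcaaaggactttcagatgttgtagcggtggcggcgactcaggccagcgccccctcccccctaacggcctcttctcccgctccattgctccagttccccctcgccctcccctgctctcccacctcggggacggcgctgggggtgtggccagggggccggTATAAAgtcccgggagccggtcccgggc
Igfbp5, chr1:72874866-72875115, minus strand: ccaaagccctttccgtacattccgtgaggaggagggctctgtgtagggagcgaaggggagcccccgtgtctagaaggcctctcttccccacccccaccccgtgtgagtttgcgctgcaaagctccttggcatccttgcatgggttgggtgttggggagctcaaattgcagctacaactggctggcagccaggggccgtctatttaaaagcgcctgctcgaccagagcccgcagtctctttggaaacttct
*Igf1r* had 48 CpG dinucleotides and a GC content of 76.0% in its window of 300 bases. *Igfbp4* had 27 CpG dinucleotides and *Igfbp5* had 10, against a median of 7 over all 32851 windows of this length. The median GC content was 67.0% over the 9 windows of these genes and 52.7% over all windows. TATAAA was found in the *Igfbp4* window only, beginning 28 bases before the start, and in 13.6% of all windows. GGGCGG was found in the windows of *Igf1r* and *Irs1* (2 matches each) and of *Igfbp2* (3 matches), and in 35.7% of all windows. TGCCGC had 1 match among the 9 windows, in the second of 2 *Igfbp2* windows, while 11.6% of all windows held it.

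All 10 genes passed the filter on low counts, with 502 to 33196 counts per gene and embryo. Levels were compared between genes as TPM, in which counts are divided by gene length and set to a common total. *Igfbp5* was the most abundant of the 10, at a median of 618 TPM (501 to 715 over the 12 embryos), and stood above 99.0% of the 16026 genes tested. *Igfbp2* (204 TPM), *Igfbp3* (175 TPM) and *Igfbp4* (171 TPM) formed the next levels. Below them the median TPM was 61.7 for *Igf2bp3*, 56.3 for *Igf2bp1*, 49.6 for *Igf1*, 46.2 for *Igf1r*, 37.6 for *Irs1* and 28.8 for *Insr*.

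The 4 binding protein genes were higher than the other 6 genes in every embryo, and by median the ligand, receptor and adaptor genes were the lowest. *Igfbp5* was above *Igfbp2* in 12 of 12 embryos and their ranges did not overlap. *Igfbp2* was above *Igfbp3*, and *Irs1* above *Insr*, in 12 of 12 embryos although the ranges over embryos overlapped. Some neighbours in this order were not separated by their spread: *Igfbp3* was above *Igfbp4* in 5 of 12 embryos, *Igf1* above *Igf1r* in 6 of 12, and *Igf2bp3* above *Igf2bp1* in 8 of 12. The TPM of *Igf1r* rests on a gene length of 4489 bases, and that of *Igf1* on 13144 bases, as implied by the deposited FPKM values.

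**Figure D1:**
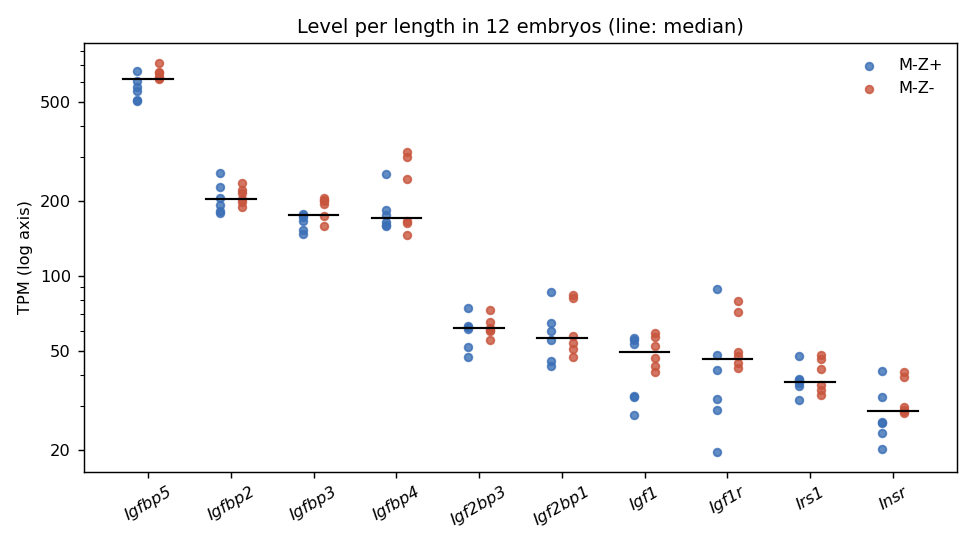
Level of the 10 IGF signalling genes as TPM on a log axis, 1 point per embryo, with M-Z+ in blue, M-Z- in red and a line at the median of the 12 embryos. The 4 binding protein genes lie highest, with *Igfbp5* at a median of 618 TPM, and *Insr* lies lowest at 28.8 TPM.

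For the comparison of the genotypes, a gene was called when the Benjamini-Hochberg adjusted p of edgeR's quasi-likelihood test was below 0.05 and the log2 fold change was beyond 0.5. None of the 10 genes was called (0 of 10), where 13 of all 16026 genes tested were called (0.0811%). DESeq2 called 0 of the 10 as well, where it called 0.231% of all genes. At an unadjusted p below 0.05 in edgeR, 1 of the 10 genes (*Igfbp5*) was singled out, in the direction of higher counts in M-Z-, where 6.7% of all genes passed in either direction and 3.44% in this one. With the fold limit added, 0 of the 10 and 1.54% of all genes passed. The groups overlapped for all 10 genes (0 of 10 separate, where 0.574% of all genes were). The fitted log2 fold change was above 0 in M-Z- embryos for 9 of the 10 genes, with a median of 0.16, whereas it was above 0 for 48.3% of all tested genes, with a median of -0.01. With the gene length slope of each library, a measure of how strongly its counts rose with gene length, as a covariate, 7 of the 10 were above 0 and the median was 0.07. These 9 values are not separate pieces of evidence, since several of the genes varied together among embryos. In these bulk samples, fewer cells of a type and less RNA per cell cannot be told apart.

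The 95% intervals of the log2 fold change set how large a difference could have gone unseen. For 7 of the 10 genes the interval lay wholly within 0.5 of 0, as it did for 62.6% of all genes tested. The exceptions were *Igf1*, *Igf1r* and *Igfbp4*, whose intervals reached 0.52, 0.94 and 0.67.

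**Figure D2:**
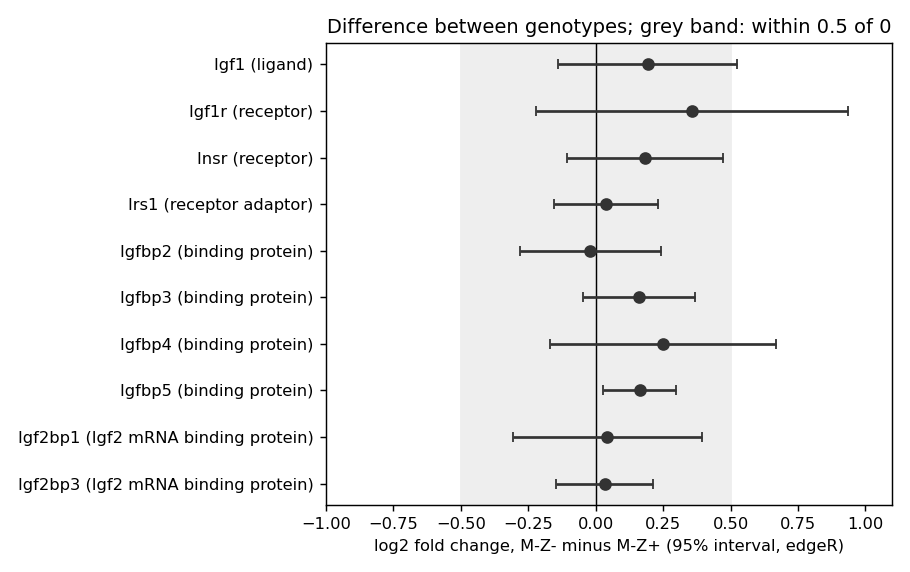
Log2 fold change of M-Z- minus M-Z+ embryos for the 10 genes, with 95% intervals from edgeR (6 embryos per group) and a grey band from -0.5 to 0.5. Only the interval of *Igfbp5* (0.03 to 0.30) leaves out 0, and those of *Igf1*, *Igf1r* and *Igfbp4* extend beyond the band.

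The ligand gene *Igf1* lies at chr10:87858265-87937042 (positions of the table, GRCm38). Its level, as CPM (counts relative to the library total, scaled by TMM), was 112 to 199 (median 162) among M-Z+ embryos and 156 to 209 CPM (median 184) among M-Z- embryos. Replicates 1, 4 and 5 of M-Z+ were below all M-Z- embryos, and the other 3 lay among them. The log2 fold change was 0.19 ± 0.15 (SE, n = 6 per group; edgeR adjusted p = 0.763), and it was 0.11 without replicate 4 of M-Z+, 0.13 without replicate 1 or 5 of M-Z+, 0.048 when the fit held each library's length slope and 0.076 without the lowest and the 3 highest libraries by that slope. *Igf2*, the imprinted ligand gene, was at 515 to 2066 CPM among M-Z+ and 1409 to 1863 CPM among M-Z- embryos, with replicates 2 and 5 of M-Z+ lowest (log2 fold change 0.18 ± 0.30 (SE), adjusted p = 0.879).

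The receptor gene *Igf1r* (chr7:67952859-68226780) had the widest range of the 10 genes. It was at 27.1 to 105 CPM (median 47.9) in M-Z+ embryos and at 54.0 to 94.7 CPM (median 62.3) in M-Z- embryos. The lowest and the highest of all 12 embryos were both M-Z+, replicates 4 and 6, which differed 3.88-fold. The log2 fold change was 0.36 ± 0.27 (SE; adjusted p = 0.759), and it was 0.65 without replicate 6 of M-Z+ (adjusted p = 0.263).

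*Insr* (chr8:3150922-3279617) was at 65.0 to 115 CPM (median 78.1) in M-Z+ and at 84.1 to 115 CPM (median 87.1) in M-Z- embryos. The groups overlapped, with replicate 6 the highest of each. Its log2 fold change was 0.18 ± 0.13 (SE; edgeR adjusted p = 0.756). The adaptor gene *Irs1* (chr1:82233101-82291416) kept nearly the same range in both groups, 89.4 to 115 CPM in M-Z+ and 86.8 to 119 CPM in M-Z- embryos. The interval of its log2 fold change ran from -0.15 to 0.23 (adjusted p = 0.910).

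*Igfbp5* (chr1:72857932-72874884), whose product binds IGFs and also extracellular matrix, came closest to separate groups. It was at 1500 to 1729 CPM (median 1583) among M-Z+ embryos and at 1723 to 1893 CPM (median 1781) among M-Z- embryos. Of the 6 M-Z- embryos, 5 were above the highest M-Z+ embryo. The fold change was 1.12 (95% interval 1.02 to 1.23; edgeR adjusted p = 0.744). The exact permutation test of mean CPM for this single gene, over all divisions of the embryos into groups of 6, gave a two-sided p of 0.0043, where the smallest possible is 0.0022 (edgeR gave an unadjusted p of 0.0232). Neither of these was adjusted for the number of genes.

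*Igfbp2* (chr1:72824503-72852474) lies beside *Igfbp5* on chromosome 1. It was the only one of the 10 genes with a fitted value below 0, at 129 to 214 CPM (median 151) among M-Z+ and 137 to 183 CPM (median 160) among M-Z- embryos. Its log2 fold change was -0.02 ± 0.12 (SE; adjusted p = 0.967), and the fitted sign and the order of the medians differed. *Igfbp3* (chr11:7206086-7213923), the main carrier of IGFs in serum, was at 146 to 199 CPM (median 184) among M-Z+ and 162 to 221 CPM (median 211) among M-Z- embryos. Replicates 1 to 4 of M-Z- were above all M-Z+ embryos, and replicates 5 and 6 were below most of them. The log2 fold change was 0.16 ± 0.10 (SE; adjusted p = 0.753).

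*Igfbp4* (chr11:99041244-99054392) was at 277 to 413 CPM (median 304) among M-Z+ and at 236 to 544 CPM (median 347) among M-Z- embryos. Replicates 1, 3 and 5 of M-Z- (516, 544 and 402 CPM) and replicate 6 of M-Z+ (413 CPM) were high, and the other 8 embryos were between 236 and 331 CPM. The lowest embryo was also M-Z-, so that the M-Z- embryos lay on both sides of the M-Z+ group. The log2 fold change was 0.25 ± 0.19 (SE; adjusted p = 0.759). It was 0.12 without replicate 3 and 0.13 without replicate 1 of M-Z-, and 0.48 without the lowest and the 3 highest libraries by gene length slope.

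*Igf2bp1* (chr11:95957163-96005940) was at 129 to 237 CPM (median 171) among M-Z+ and 141 to 233 CPM (median 164) among M-Z- embryos. *Igf2bp3* (chr6:49085223-49214957) was at 134 to 180 CPM (median 162) among M-Z+ and 145 to 179 CPM (median 162) among M-Z- embryos. No M-Z- embryo was above the highest M-Z+ embryo for either gene. The log2 fold changes were 0.04 ± 0.16 and 0.03 ± 0.08 (SE), with adjusted p of 0.946 and 0.916. The table holds *Malsu1* over part of *Igf2bp3*, with 2522 counts over all libraries against 27163 for *Igf2bp3*; the genes overlapping *Igf1*, *Insr*, *Irs1* and *Igf2bp1* had at most 49 counts.

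**Figure D3:**
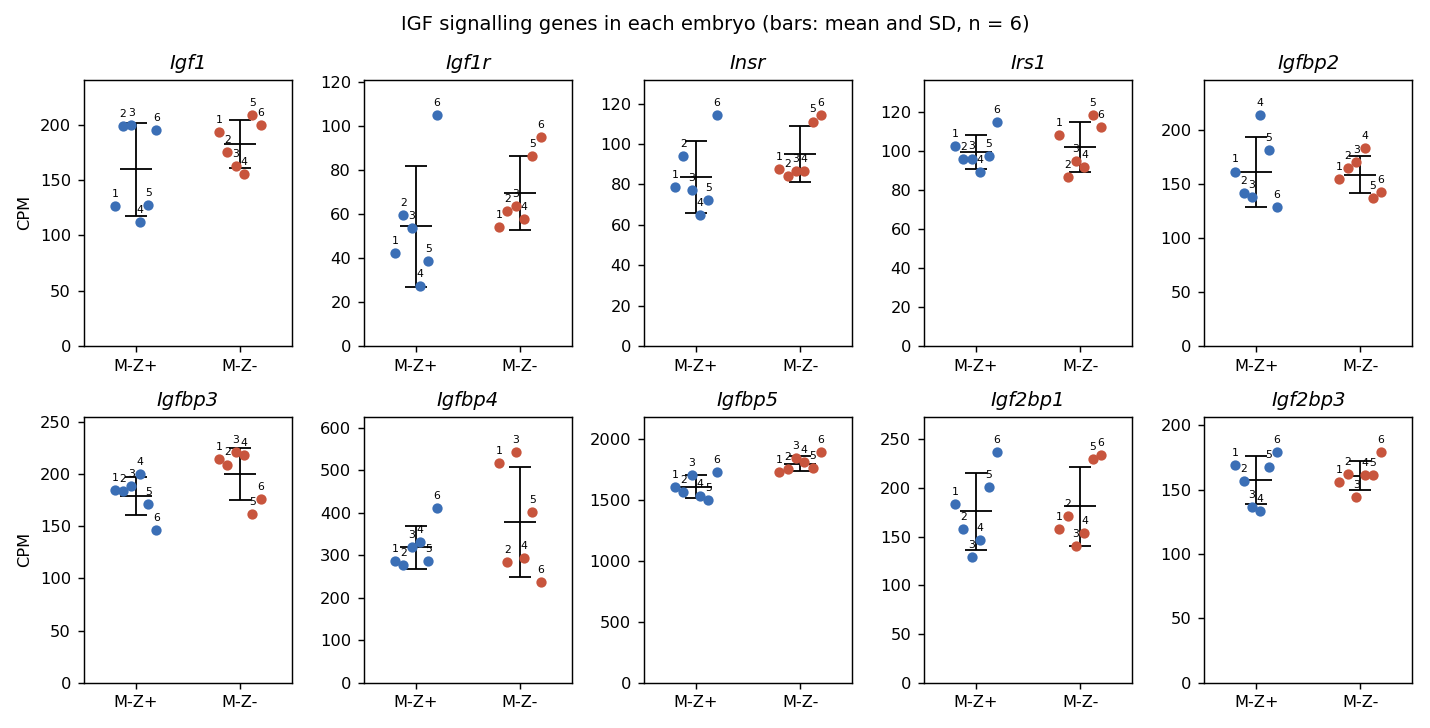
CPM of each gene in the 6 M-Z+ (blue) and 6 M-Z- (red) embryos, with the replicate number above each point and bars for the mean and SD of each group, axes starting at 0. The groups overlap for all 10 genes, with the least overlap for *Igfbp5* (1500 to 1729 against 1723 to 1893 CPM).

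Of the ratios within a library, which do not depend on library scaling, 3 were compared per length. The *Igf1r* to *Insr* log2 ratio was 0.49 ± 0.39 (SD, n = 6) in M-Z+ and 0.75 ± 0.15 in M-Z- embryos, a difference of 0.26 (exact permutation p = 0.162, adjusted p = 0.474 over the 3 ratios). Without replicate 6 of M-Z+ the difference was 0.38 (exact permutation test, adjusted p = 0.0455). That p-value was adjusted over the 3 ratios and not over the embryos left out in turn. Replicate 6 was the only M-Z+ embryo among the 3 libraries of highest gene length slope (0.660 to 0.670). This ratio followed that slope over all 12 libraries (r = 0.87), and the part of the slope in the difference was not tested. The *Igfbp5* to *Igfbp2* log2 ratio was 1.46 ± 0.35 (SD) in M-Z+ and 1.63 ± 0.17 in M-Z- embryos (difference 0.17, exact permutation p = 0.316, adjusted p = 0.474). This difference was 0.067 without replicate 4 and 0.11 without replicate 5 of M-Z+, and 0.044 without the lowest and the 3 highest libraries by gene length slope. For *Igf2bp1* to *Igf2bp3* it was -0.04 ± 0.17 and -0.04 ± 0.24, so that both transcripts were at nearly equal levels per length in either genotype (difference 0.01, exact permutation p = 0.965).

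The spread among embryos of 1 genotype differed widely between the genes. The within-group SD of log2 CPM was 0.52 for *Igf1r*, larger than in 95.9% of the genes of similar count, and 0.38 for *Igfbp4*, larger than in 92.9%. For *Igf2bp1* (0.31), *Igf1* (0.30) and *Insr* (0.25) it was above that of 85.0%, 83.7% and 77.4% of such genes. *Igfbp5* had an SD of 0.07, and only 4.81% of the genes of similar count varied less. The M-Z+ embryos were the more variable for *Igf1* (SD 0.39 against 0.17) and *Igf1r* (0.66 against 0.33), and the M-Z- embryos for *Igfbp4* (0.49 against 0.21). These differences in spread between groups were not tested.

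Libraries differed in how strongly counts rose with gene length. The slope of a line fitted to log2 CPM by log2 gene length was 0.660 to 0.670 in 3 libraries (replicate 6 of M-Z+, replicates 5 and 6 of M-Z-) and 0.437 to 0.567 in the other 9, with the lowest value in replicate 4 of M-Z+. Its mean was 0.54 in M-Z+ and 0.59 in M-Z- embryos (exact permutation p = 0.195). *Igf1r*, *Insr*, *Irs1* and *Igf2bp1* were higher in the 3 libraries than in any of the other 9. How many of all tested genes separated in the same way was not counted, so this was not shown to be particular to these genes. *Igf1r* was at 86.4 to 105 CPM in the 3 libraries and at 27.1 to 63.6 CPM in the others. *Insr* was at 111 to 115 against 65.0 to 94.2 CPM. Among the 9 libraries alone and with group means removed, Pearson's r with the slope was 0.92 for *Igf1r*, 0.79 for *Igf1* and -0.86 for *Igfbp2* (permutation test, each adjusted p = 0.0425 over the 10 genes), and no other gene passed. Spearman's rho was 0.68, 0.82 and -0.70 for these genes (permutation test, each adjusted p = 0.377). Without the 2 libraries of the 9 farthest from the median slope, r was 0.47, 0.70 and -0.66. The share of all tested genes that follow the slope, which is fitted over them, was not counted. Over all 12 libraries, which fall into these sets of 3 and 9, 8 of the 10 genes passed. The value was then 0.96 for *Igf1r* (rho = 0.84, permutation adjusted p = 0.00090 and 0.0044) and -0.91 for *Igfbp3* (rho = -0.91, permutation adjusted p = 0.0033 and 0.0036). Without the 2 libraries farthest from the median slope, r was 0.91 and -0.82. Among the 9 libraries r was -0.59 for *Igfbp3* (permutation adjusted p = 0.356). The ratios followed the slope as well over all 12 libraries, with r of 0.87 for *Igf1r* to *Insr* and 0.85 for *Igfbp5* to *Igfbp2* (rho = 0.80 and 0.81, each with a permutation adjusted p of 0.0012 for r and 0.0032 for rho). For *Igf2bp1* to *Igf2bp3* r was 0.71 (rho = 0.55, permutation adjusted p = 0.0115 and 0.0769). Without the 2 farthest libraries r was 0.74, 0.77 and 0.52 for these ratios. Among the 9 libraries r was 0.82, 0.79 and -0.27, and none of the 3 ratios passed (permutation adjusted p = 0.115, 0.115 and 0.674).

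**Figure D4:**
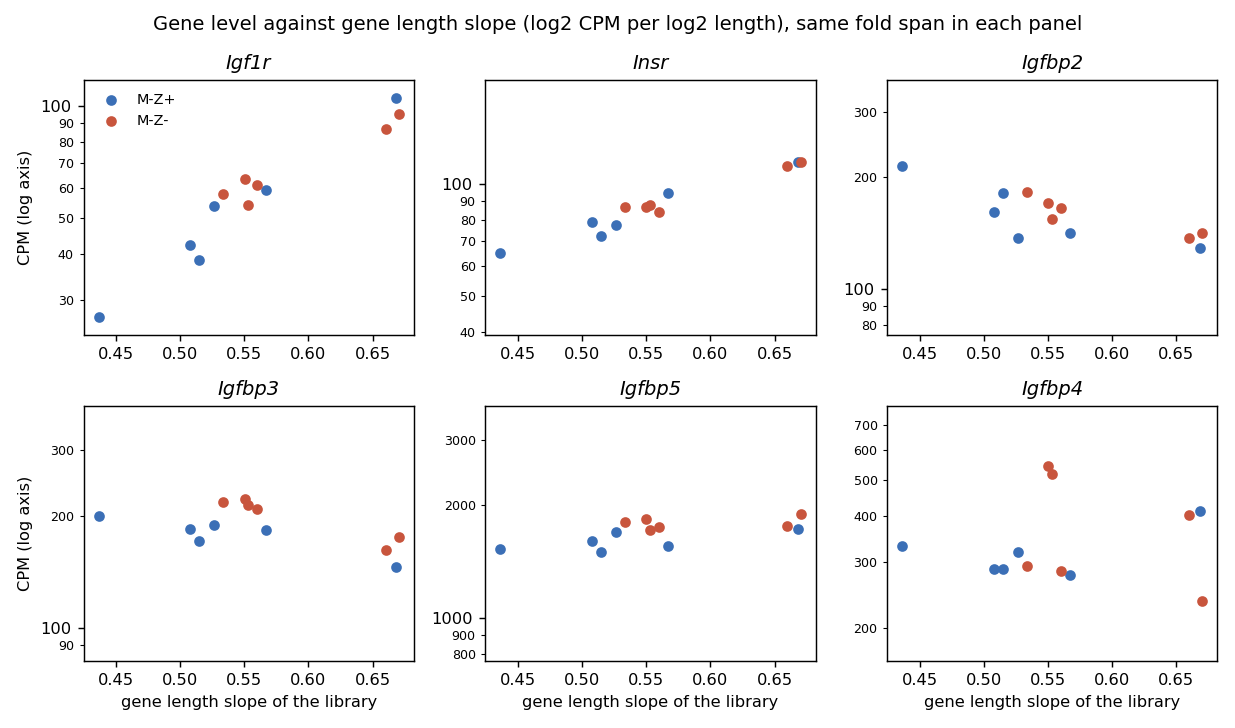
CPM of 6 of the genes (log axis, the same fold span in each panel) against the gene length slope of the library, the rise of log2 CPM per unit of log2 gene length, with M-Z+ in blue and M-Z- in red. *Igf1r* and *Insr* are highest in the 3 libraries of slope 0.660 to 0.670, whereas *Igfbp4* is spread from 236 to 544 CPM without following the slope.

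With the slope of each library as a covariate, the log2 fold change was 0.27 ± 0.05 (SE) for *Igfbp3* and 0.13 ± 0.07 for *Igfbp2*, and it fell to 0.09 for *Igf1r* and 0.02 for *Insr*. None of the 10 genes was called in that fit, in which *Igfbp3* had the lowest adjusted p (0.0647, edgeR). Without the lowest and the 3 highest libraries by slope, 0 of the 10 genes were called, and 7 of the 10 had a value above 0.

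Across embryos, with group means removed, 18 of the 45 pairs of the 10 genes passed a permutation test of Pearson's r (adjusted p below 0.05 over the 45 pairs), 9 with a positive and 9 with a negative sign. The share of pairs of other genes that would pass was not counted. *Igf1r* and *Insr* varied together (r = 0.95, rho = 0.87; permutation test, adjusted p = 0.0040 and 0.0149), and r was 0.91 without the 2 embryos farthest from the median of *Igf1r*. *Igf2bp1* and *Igf2bp3* did so as well (r = 0.85, rho = 0.91; permutation test, adjusted p = 0.0040 and 0.0090; r = 0.74 without the 2 farthest embryos). *Igf1* and *Igfbp2* varied in opposite directions (r = -0.93, rho = -0.87; permutation test, adjusted p = 0.0013 and 0.0136; r = -0.95 without the 2 farthest), and so did *Igfbp3* and *Igf2bp1* (r = -0.91, rho = -0.88; permutation test, adjusted p = 0.0040 and 0.0115; r = -0.86 without the 2 farthest). *Igfbp4* passed with none of the other 9 genes, with r from -0.34 to 0.22.

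The relations were then computed with the gene length slope taken into account. With the slope removed as well as the group means, 0 of the 45 pairs passed after adjustment and 8 had an unadjusted permutation p below 0.05. The value was 0.31 for *Igf1r* and *Insr*, 0.71 for *Igf2bp1* and *Igf2bp3*, -0.85 for *Igf1* and *Igfbp2*, and -0.80 for *Igfbp3* and *Igf2bp1* (adjusted permutation p = 0.690, 0.228, 0.0643 and 0.0643). Among the 9 libraries of lower slope, r for the same pairs was 0.87, 0.90, -0.92 and -0.78, with adjusted permutation p of 0.300, 0.179, 0.0810 and 0.300, and again 0 of 45 passed.

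**Figure D5:**
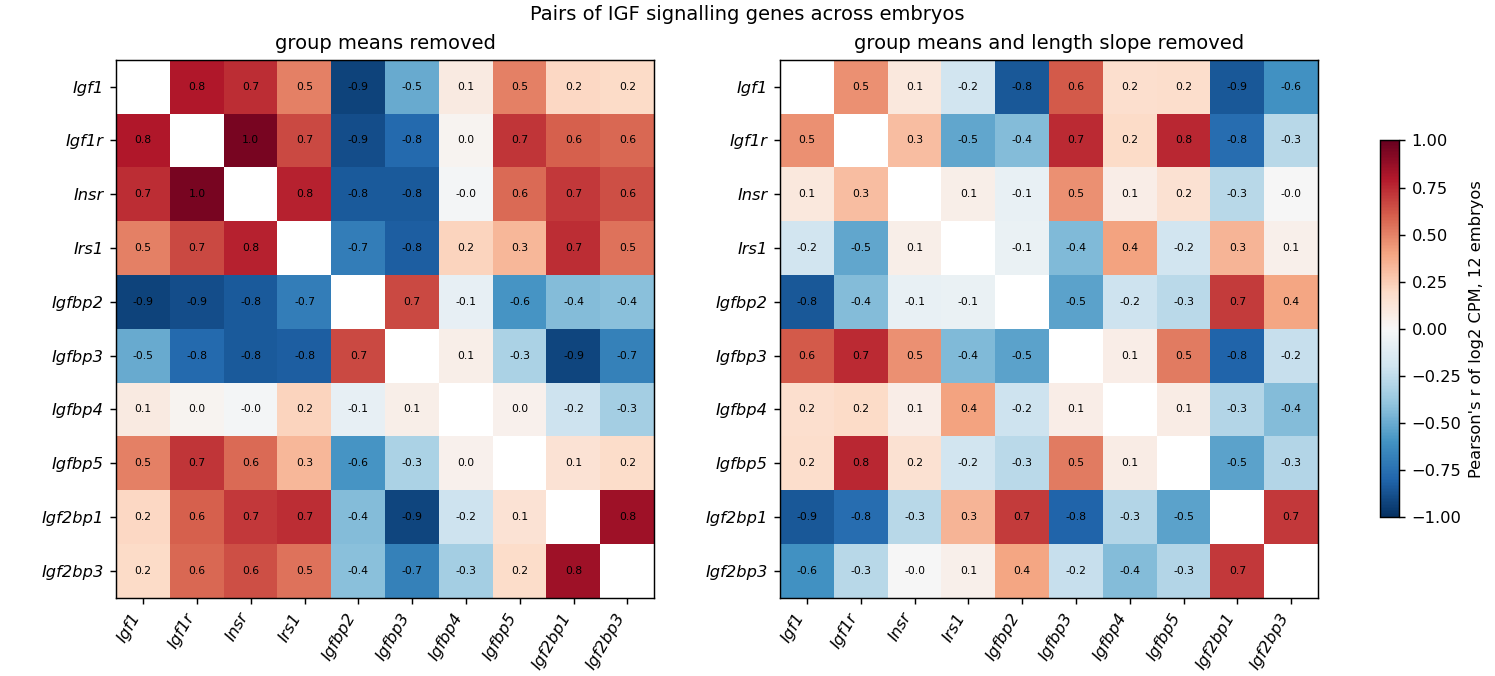
Pearson's r of log2 CPM for each pair of the 10 genes over 12 embryos, with group means removed (left) and with the gene length slope removed as well (right), from blue (-1) to red (1). In the left panel 18 of 45 pairs passed the permutation test after adjustment and in the right panel 0 did; the row of *Igfbp4* is pale in the left panel.

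The genes most like each of the 10 genes other than *Igf2bp3* across the 12 libraries were sought among 13473 genes by Pearson's r of log2 CPM, with group means removed. For *Igf1r* they were *Tenm3* and *Hmcn1* (both r = 0.99), for *Insr* *Kmt2a* and *Arid2* (both 0.99), and for *Igf1* *Sgcd* and *Ncoa7* (both 0.99). For *Irs1* they were *Pcdh15* (0.95) and *Nfx1* (0.92), and for *Igf2bp1* *Ist1* and *Slc20a1* (both 0.97). For *Igfbp2* they were *Tmem180* (0.98) and *Fjx1* (0.96), and for *Igfbp3* *Cenpb* and *Rplp0* (both 0.98). For *Igfbp5* they were *Nid1* (0.91) and *Elk1* (0.89). The highest values for *Igfbp4* were lower, with *Il2rg* (0.81) and *Klhdc2* (0.80). All points share the libraries and their length slopes. The values given are the 2 highest found for each gene among 13473 genes over 12 libraries. How high r reaches for unrelated genes in such a search was not tested.

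The rest of the pathway was followed with a list of 56 genes, of which 52 were tested and 0 were called; DESeq2 also called 0. At an unadjusted p below 0.05 in edgeR, 3 of the 52 passed (1 higher, 2 lower), near the share of all tested genes that did (6.7%). They were *Grb10*, *Igf2r* and the receptor inhibitor *Grb14*. The median log2 fold change of the list was 0.06, with 34 values above and 18 below 0 and a range from -0.67 to 0.32. The imprinted inhibitor *Grb10* was at 1632 ± 105 CPM (SD) among M-Z+ and 1381 ± 136 CPM among M-Z- embryos (log2 fold change -0.24 ± 0.08 (SE), edgeR adjusted p = 0.705). *Igf2r*, which clears IGF2, was at 452 ± 81.9 and 343 ± 110 CPM (SD; log2 fold change -0.40 ± 0.18 (SE), adjusted p = 0.744). An alternative chosen after seeing the data left out the lowest and the 3 highest libraries by length slope. In it *Igf2r* was the 1 gene of the list that was called (log2 fold change -0.61, edgeR adjusted p = 0.0285), and 20 of all genes were called. The libraries left out include replicate 5 of M-Z-, at 560 CPM for *Igf2r* where the rest of M-Z- ranged from 248 to 330 CPM. Without that embryo alone the log2 fold change was -0.60 (edgeR adjusted p = 0.219).

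No role in the list had a called gene. Of the adaptors and inhibitors, *Grb2* was at 101 ± 25.0 and 113 ± 12.4 CPM (SD) in M-Z+ and M-Z- embryos, and *Gab1*, a docking protein, at 89.9 ± 6.25 and 93.3 ± 5.04 CPM. The 4 tested binding protein genes of the list had values below 0 (median -0.20), with *Igfbpl1* at 110 ± 14.9 and 95.8 ± 10.2 CPM and *Igfbp7* at 11.8 ± 4.2 and 10.3 ± 2.08 CPM. For *Igfbp1* the log2 fold change was close to 0 (-0.02, 95% interval -0.91 to 0.87). Of all tested genes, 48.3% had values above 0. The other mRNA binding protein gene, *Igf2bp2*, was at 153 ± 26.3 and 166 ± 7.23 CPM. *Hmga2*, a chromatin gene of fetal growth, was at 334 ± 45.9 and 301 ± 30.4 CPM, its relative *Hmga1* at 20.9 ± 3.73 and 21.8 ± 4.25 CPM, and *Lin28b*, which blocks let-7 microRNAs, at 21.0 ± 4.74 and 22.4 ± 3.12 CPM. Over all 4 Lin28 and Hmga genes of the list, the log2 fold change ran from -0.67 to 0.09. For the proteases that cut binding proteins and their inhibitors, *Htra1* was at 21.4 ± 7.14 and 23.9 ± 4.89 CPM, *Stc1* at 12.9 ± 1.90 and 13.6 ± 1.42 CPM, and *Pappa2* at 31.5 ± 6.03 and 31.0 ± 3.00 CPM.

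Downstream of the receptors, 12 of the 13 PI3K, AKT and FOXO genes and 7 of the 8 mTOR genes had intervals within 0.5 of 0. Of all tested genes, 62.6% had such intervals and 48.3% had values above 0. The kinase gene *Akt1* was at 324 ± 33.2 and 328 ± 29.7 CPM (SD), *Gsk3b* at 237 ± 46.4 and 269 ± 38.6 CPM, and *Foxo4* at 90.7 ± 6.44 and 82.9 ± 9.0 CPM. *Eif4ebp1*, a repressor of translation that mTOR inactivates, was at 31.2 ± 7.18 and 30.6 ± 5.88 CPM, *Rheb* at 98.5 ± 9.76 and 93.8 ± 7.10 CPM, and *Tsc2* at 107 ± 12.2 and 106 ± 4.17 CPM. All 5 genes of the growth hormone axis had values above 0 with intervals within 0.5, among them *Stat5b* at 52.9 ± 2.08 and 57.2 ± 2.02 CPM, *Jak2* at 76.7 ± 12.1 and 83.9 ± 8.70 CPM, and the receptor gene *Ghr* at 70.0 ± 10.1 and 76.6 ± 7.17 CPM. The insulin receptor-related gene *Insrr* was at 3.04 ± 1.22 and 3.54 ± 1.92 CPM. Of the insulin genes, which were not tested, *Ins1* had at most 7 counts in a library and *Ins2* had 0 counts in all libraries.

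The libraries held 12005145 to 19216288 counts. *Zfp57* itself was at 19.1 to 40.8 CPM in M-Z+ and 17.8 to 27.8 CPM in M-Z- embryos (edgeR adjusted p = 0.828). The count is of the whole gene and the deleted part is not named in the sources used here, so it does not check the genotype labels. The label of whole embryo was set against marker lists of 10 genes each: those of hepatocytes, erythroid, neural, skeletal muscle, cartilage and bone, and mesenchymal cells had counts for all 10 markers. For placenta and trophoblast the summed level was 1.85 to 5.48 CPM, with *Tpbpa*, *Prl3d1* and *Prl2c2* at 0. The summed mesenchyme level was 6144 to 8638 CPM among M-Z+ and 6858 to 9034 CPM among M-Z- embryos, and that of hepatocytes 3837 to 7697 and 2894 to 7208 CPM. The groups overlapped for every list, and the part of cell composition in the values above was not tested.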

How the data were processed

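The authors deposited raw counts per gene and FPKM values for 12 RNA-seq libraries (6 M-Z+ and 6 M-Z- embryos). HISAT2 2.0.4 and mm10 are named in the submitters' processing notes; no source used here gives the annotation, the counting program or how it treated strand for these libraries. The methods of the study describe stranded featureCounts on mm9 for its RNA-seq, whereas the positions in this table follow GRCm38. The text of the study does not tie the sexed embryos of its RNA-seq to these 12 libraries, so they may be a different set. With 1 length per gene, all deposited FPKM values above 0.01 could be recomputed within 0.1% from the counts, and these lengths were used for TPM. Whole-genome bisulfite samples were not analysed here.

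Counts were filtered (filterByExpr, leaving 16026 genes), scaled by TMM and fitted with edgeR 4.0.16 in R 4.3.3 (glmQLFit, glmQLFTest), M-Z- against M-Z+, without covariates. CPM values are scaled by TMM. Standard errors were taken from the log2 fold change and the F statistic (its square root is their ratio). The gene length slope was fitted in each library over the tested genes. Correlations used log2(CPM + 0.5) with 100000 permutations within groups. For the spread, a gene was set beside up to 500 genes on each side in mean count. Alternatives used DESeq2 1.42.0 and sva 3.50.0, and the test was tested on simulated data.

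The 10 genes and the list of 56 pathway genes were chosen with earlier results of these data known. Named were all 10 genes, called genes of the list, the 3 of highest TPM in each role, the imprinted *Igf2*, *Igf2r* and *Grb10*, and the 2 most alike genes (mean of at least 50 counts). The genes most like *Igf2bp3* are not reported here. *Grb14*, and the split of libraries by slope, were singled out after the values were seen. Nothing in the labels says that the embryos came from separate litters, so they may not be independent. The p-values set differences against the spread between these samples only. Total counts were 12005145 to 19216288 per library. Intervals from edgeR are for the log2 fold change between groups and rest on the spread between embryos.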

Additional observations from a re-analysis of the deposited data

Results flagged for a closer look

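None of the 10 genes had an embryo beyond Dixon's limit, which sets the gap to the next embryo against the range of the group. The largest gaps among these genes were those of replicate 6 of M-Z+. They took up 0.602 of the range for *Igfbp4* and 0.584 for *Igf1r*. Among the 70 groups of 6 values searched (the 10 genes and the other named genes, by genotype), 2 held an embryo whose gap to the next took up more of the range than Dixon's limit for 6 values allows, where chance gives about 3.5. The *Igf2r* level of replicate 5 of M-Z- was 560 CPM, while the rest of M-Z- ranged from 248 to 330 CPM and the M-Z+ embryos from 345 to 588 CPM. Without it the log2 fold change of *Igf2r* was -0.60 (edgeR adjusted p = 0.219). The *Igfbp1* level of replicate 3 of M-Z+ was 36.7 CPM, while the rest of M-Z+ ranged from 6.82 to 15.2 CPM and the M-Z- embryos from 6.66 to 21.4 CPM. For *Igfbp1* the log2 fold change was -0.02 with and 0.49 without this embryo (edgeR adjusted p = 0.992 and 0.719).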

How the results depend on the processing

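None of the 10 genes was called in edgeR or under any of the 20 alternatives (200 values, lowest adjusted p 0.0647). *Igf1r*, *Insr*, *Igfbp3*, *Igfbp4* and *Igfbp5* kept their direction in all of them, and 23 of the other values changed sign. With 2 surrogate variables the log2 fold change was -0.019 for *Igf1*, -0.0088 for *Irs1* and 0.17 for *Igfbp2*. With the length slope as covariate it was -0.053 for *Irs1*, 0.13 for *Igfbp2*, -0.15 for *Igf2bp1* and -0.033 for *Igf2bp3*. Without the 4 libraries of extreme length slope, an alternative chosen after seeing the data, it was -0.042 for *Irs1*, 0.11 for *Igfbp2*, -0.11 for *Igf2bp1*, -0.013 for *Igf2bp3* and -0.082 for the *Igf2bp1* to *Igf2bp3* log2 ratio, and *Igf2r* was the 1 pathway gene called. Leaving out 1 embryo at a time gave -0.018 to 0.075 for *Irs1*, -0.087 to 0.076 for *Igfbp2*, -0.053 to 0.14 for *Igf2bp1*, -0.013 to 0.066 for *Igf2bp3*, 0.11 to 0.27 for *Igf1*, 0.12 to 0.34 for *Igfbp4*, -0.067 to 0.057 for the *Igf2bp1* to *Igf2bp3* ratio, 0.067 to 0.25 for the *Igfbp5* to *Igfbp2* ratio and 0.16 to 0.38 for the *Igf1r* to *Insr* ratio, of which the value without replicate 6 of M-Z+ (0.38) passed. The median of the 10 genes ranged from 0.07 to 0.17. Over all genes the 13 calls became 37 with DESeq2, 31 with 2 surrogate variables, 23 with the length slope, 20 without the 4 libraries and 247 at an unadjusted p. Of the pairs of genes, 18 of 45 passed, but 0 with the slope removed and 0 without the 3 libraries of highest slope, an alternative added after seeing the data. The cause of these changes was not tested.

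Pairing by replicate number was not shown and is not part of the design. The deviations of same-numbered embryos correlated above 0.1 in 5 of 6 pairs (0.02 to 0.64 over all 6). Of the 6 M-Z+ embryos, 3 matched their own number best. These values were not tested. The highest (0.64) was that of replicate 6, whose libraries both had a high length slope (0.668 in M-Z+ and 0.670 in M-Z-). With the replicate block 21 genes were called, none of them among the 10 genes (0) or the other pathway genes (0).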
